A study of Mus musculus with 10 samples.

Results

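The subunit genes of the proteasome were followed in mSCLC cells, a line derived from a primary small cell lung cancer of the mouse, cultured for 48 h with stiripentol, an antiseizure medication, or with DMSO as control. The members were all genes of the table whose symbol is Psma, Psmb, Psmc or Psmd with a number, or Psme1 to Psme4, without the immunoproteasome subunits Psmb8, Psmb9 and Psmb10. They were 39 of 26335 genes, 15 of the 20S core and 24 of its regulators. RNA was sequenced from 5 control and 5 stiripentol libraries of this 1 line, and nothing in the labels gives a genotype or says that the libraries came from separate cultures, so that p-values measure the spread between libraries, which may be technical. Levels are log2 CPM, the read count scaled to the size of its library, and library values are given below in the order of library number, 1 to 5.

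The 26S proteasome is the protease that degrades proteins tagged with ubiquitin. Its 20S core is a barrel of alpha rings, which gate the entrance, and beta rings, which hold the catalytic sites, and its 19S cap recognises ubiquitin, removes it and, with a ring of ATPases, unfolds the substrate and feeds it into the core. When proteasome activity falls short, cells are known to raise subunit genes together through the transcription factor Nfe2l1 (NRF1), which binds antioxidant response elements.

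Within each group 2 clusters of libraries stood apart by their correlation across genes, 3 libraries (controls 1 to 3; stiripentol 3 to 5) and 2 libraries (controls 4 and 5; stiripentol 1 and 2). Pearson correlations across genes were 0.983 to 0.997 within a cluster of a group and 0.920 to 0.939 between the clusters of a group. The labels do not say what the clusters are, and they were matched across the groups by their size alone. Controls 4 and 5 correlated more with stiripentol 3 to 5 (0.932 to 0.938) than with stiripentol 1 and 2 (0.881 to 0.904). For genes whose library values are listed, the change within the cluster of 3 and 3 libraries and then within that of 2 and 2 is therefore given too. Depth was 55015760 to 65299372 recovered reads in all libraries but control 5, which had 22375625. Insm1 had at most 10 reads in a library and Syp at most 20, so that these defining neuroendocrine markers were at or near 0, as was the epithelial marker Epcam (at most 1). Ncam1 rose with stiripentol (1.38-fold, adjusted p = 0.00911), while Yap1 (0.547-fold, adjusted p = 0.025) and the keratin gene Krt8 (0.778-fold, adjusted p = 0.0202) fell, and Krt18 and Uchl1 were not called. Pou2f3, below the filter of a mean log2 CPM above 0 and so not tested, lay at -0.18 to 2.19 in controls and at -3.49 to -1.71 with stiripentol, without overlap. The summed level of 5 fibroblast markers, all above the filter, was 397 to 684 CPM in controls and 149 to 184 CPM with stiripentol. Col3a1, Pdgfra and Pdgfrb were called lower (changes -5.71, -1.27 and -1.49). Col1a1 and Dcn were not called (adjusted p = 0.529 and 0.557), and the change of each had opposite signs in the clusters. The sum of 4 leukocyte markers, 2 of them above the filter, was 6.41 to 18.6 CPM in controls and 58.9 to 103 CPM with stiripentol. Most of the leukocyte sum in every library was Cd68, at 2.05 to 4.17 in controls and 5.78 to 6.68 with stiripentol on the log2 CPM scale (change 3.21, adjusted p = 0.000819), whereas Lyz2 was not called (change 0.41, adjusted p = 0.648) and Ptprc and Cd79a had at most 3 reads and 2 reads. The part of these differences in the results was not tested, and in bulk RNA fewer cells of a type and less RNA per cell cannot be told apart.

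Of the 39 members, 38 passed that filter and were tested with limma among 12306 genes. After stiripentol 10 members were higher and 1 was lower at an adjusted p under 0.05, and 27 were not called. Over all genes tested 13.6% were called higher and 14.1% lower. The members' share called in either direction, 11 of 38, stood beside 27.7% of all genes. The median change was 0.07 on the log2 scale over the members and -0.06 over all genes tested. The members called higher were Psmd11, Psmb6, Psmc6, Psmd4, Psmc2, Psmd14, Psmd8, Psmb7, Psmc1 and Psma6, and the member called lower was Psma5. These 11 were also the members whose control and stiripentol libraries did not overlap, 10 with stiripentol higher (13.0% of all genes) and 1 with stiripentol lower (14.3% of all genes). All 11 changed in the same direction within both pairs of clusters, which follows from the lack of overlap and is no separate result. Psmb11, the beta subunit of the thymus proteasome, had 1 read over the controls and 3 over the stiripentol libraries and was not tested. The tested member with the fewest reads was Psmd9, with 390 in its shallowest library.

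**Figure D1:**
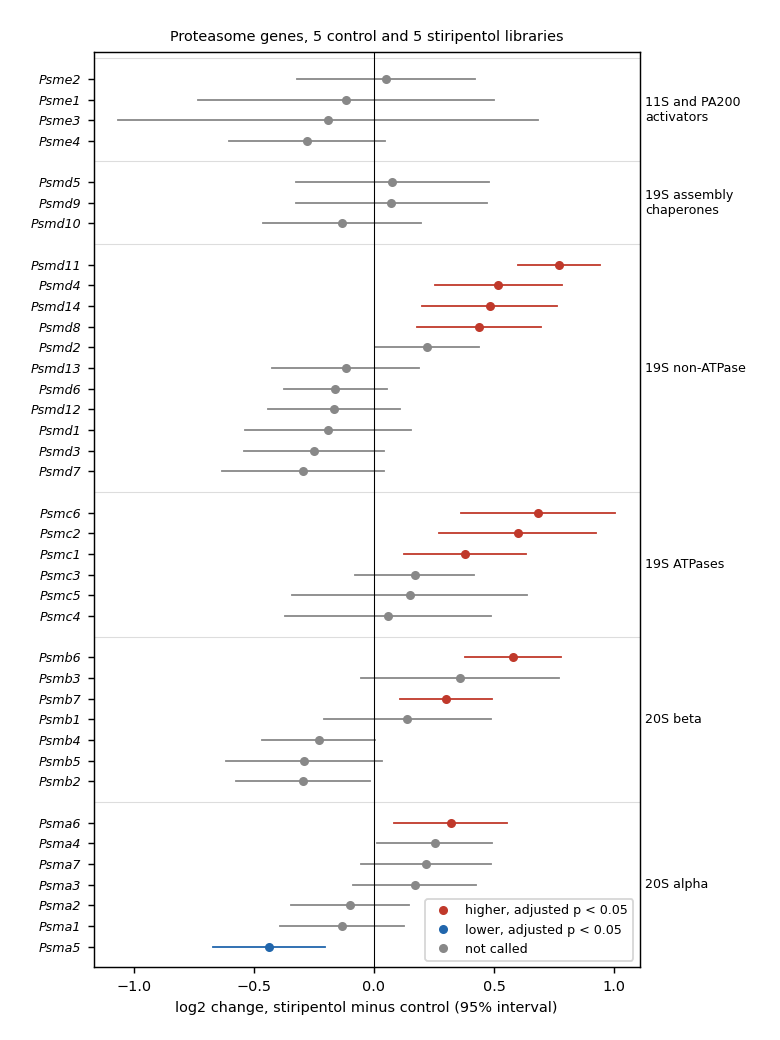
Log2 change with its 95% interval (x axis, stiripentol minus control) of the 38 tested proteasome genes (y axis), sorted within 6 subgroups. Red marks the 10 genes called higher, blue the 1 gene called lower and grey the 27 not called; all 6 ATPases lie to the right of 0, from 0.06 to 0.68.

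Of the 14 tested 20S members 3 were higher and 1 lower, with a median change of 0.15. Of the 24 regulatory members 7 were higher and none lower, with a median of 0.07. The shares over all genes, 13.6% higher and 14.1% lower, stand beside these counts and those of each subgroup below. The mean level over the 38 members was 6.90 ± 0.13 log2 CPM in controls and 6.99 ± 0.08 with stiripentol (SD, n = 5 each), and the members took 0.469 to 0.568% of the reads in controls and 0.547 to 0.591% with stiripentol. These ranges overlapped.

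The bases in front of 5 members are shown because these genes include the largest rise (Psmd11), the only fall (Psma5), both members called higher that hold the antioxidant response element core (Psmb6 and Psmc6) and 1 with an NF-Y box (Psmd4). The sequences are from RefSeq on GRCm38.p6, read 5′ to 3′ on the strand of the gene, and end at the base before the RefSeq start or, in Psmc6, before the earlier start in GENCODE. Psmd11 is at chr11:80428365-80428614 (plus strand), Psmb6 at chr11:70525107-70525356 (plus strand), Psmc6 at chr14:45329574-45329787 (plus strand), Psmd4 at chr3:95042615-95042864 (minus strand) and Psma5 at chr3:108256676-108256925 (plus strand). Capitals mark a match, on either strand, to TGACNNNGC, the antioxidant response element core, in Psmb6 and Psmc6, or to CCAAT, the NF-Y box, in Psmd4.
Psmd11: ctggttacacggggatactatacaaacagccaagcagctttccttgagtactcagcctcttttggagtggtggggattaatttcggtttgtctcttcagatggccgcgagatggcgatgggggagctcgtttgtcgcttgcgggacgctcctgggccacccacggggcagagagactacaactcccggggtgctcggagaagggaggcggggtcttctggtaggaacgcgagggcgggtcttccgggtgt
Psmb6: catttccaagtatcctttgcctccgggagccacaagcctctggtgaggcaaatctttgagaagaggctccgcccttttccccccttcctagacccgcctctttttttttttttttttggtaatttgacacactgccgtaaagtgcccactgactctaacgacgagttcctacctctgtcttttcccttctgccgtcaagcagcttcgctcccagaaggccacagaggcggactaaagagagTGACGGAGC
Psmc6: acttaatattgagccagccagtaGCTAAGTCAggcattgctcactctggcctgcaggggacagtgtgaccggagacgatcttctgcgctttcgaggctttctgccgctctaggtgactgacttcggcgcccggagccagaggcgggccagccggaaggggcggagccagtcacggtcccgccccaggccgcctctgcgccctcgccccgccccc
Psmd4: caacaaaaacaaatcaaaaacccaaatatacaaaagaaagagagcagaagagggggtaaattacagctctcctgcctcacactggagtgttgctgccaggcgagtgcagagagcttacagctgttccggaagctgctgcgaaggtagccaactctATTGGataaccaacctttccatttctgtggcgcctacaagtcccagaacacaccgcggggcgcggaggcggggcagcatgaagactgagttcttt
Psma5: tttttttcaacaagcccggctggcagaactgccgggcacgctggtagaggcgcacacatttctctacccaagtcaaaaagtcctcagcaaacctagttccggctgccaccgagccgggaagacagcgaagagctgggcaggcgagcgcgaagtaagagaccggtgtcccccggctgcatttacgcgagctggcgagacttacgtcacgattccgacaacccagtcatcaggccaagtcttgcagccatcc

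The promoter table matched 33 of the 39 members. The members without an entry were Psmb1, Psmb2, Psmb7, Psmc3, Psmd3 and Psmd7. In the window of 250 bases before to 50 after the start, TGACNNNGC was found in 6 of 33 members (18.2%) and in 14.0% of the 27025 genes of the table. It was found in 2 of the 9 matched members called higher. Those 2 were Psmb6, 9 bases before the start, and Psmc6, 227 bases before it. CCAAT was found in 13 of 33 members (39.4%) and in 41.1% of all genes, and in 5 of the 9 called higher. TGACGTCA, the cyclic AMP response element, was found in none of the 33 members and in 2.03% of all genes. All were searched on both strands. Matches to TGACNNNGC and TGACGTCA cannot overlap, and CCAAT can share at most an end base with either. A match is a description of the letters and not a binding site.

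In the alpha rings of the 20S core 1 of 7 members rose and 1 fell, with a median change of 0.17. The alpha subunits form the outer rings whose N-terminal tails close the entrance to the catalytic chamber. Psma5 (chr3:108256926-108279974, plus strand) lay at 7.15, 7.09, 6.69, 7.05 and 6.95 log2 CPM in controls and at 6.64, 6.56, 6.59, 6.44 and 6.52 with stiripentol. Each stiripentol library was below each control. The change of Psma5 was -0.44 (SE 0.11, 0.739-fold, adjusted p = 0.0131), -0.46 within the cluster of 3 and 3 libraries and -0.40 within that of 2 and 2. The call was lost with median-of-ratios scaling, at an adjusted p of 0.0599. Psma6 (chr12:55384222-55418454, plus strand) stood at 6.78, 6.81, 6.48, 6.57 and 6.36 in controls and at 7.00, 6.88, 6.95, 6.93 and 6.84 with stiripentol, with no overlap but with controls 1 and 2 within 0.1 of the lowest stiripentol library. Its change was 0.32 (SE 0.11, 1.25-fold, adjusted p = 0.0475), 0.22 and 0.47 within the clusters in the same order, as below. This call was near the threshold: it was lost without control 3, 4 or 5 or any 1 of the 5 stiripentol libraries, at adjusted p from 0.0616 to 0.103. Psma4, Psma7 and Psma3 had changes of 0.25, 0.22 and 0.17, and Psma2 and Psma1 of -0.10 and -0.13, none of them called. Psma3 shares its sequence with pseudogenes, the most abundant of which had 2129 reads over the controls against 29154 for Psma3 itself.

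In the beta rings 2 of 7 tested members rose and none fell, with a median of 0.14. Catalysis sits in Psmb6 (beta 1, caspase-like), Psmb7 (beta 2, trypsin-like) and Psmb5 (beta 5, chymotrypsin-like, the main target of the proteasome inhibitor bortezomib). Psmb6 (chr11:70525367-70527858, plus strand) lay at 7.10, 7.16, 7.02, 7.32 and 7.17 in controls and at 7.70, 7.61, 7.82, 7.84 and 7.68 with stiripentol, and the groups did not overlap. Its change was 0.58 (SE 0.09, 1.49-fold, adjusted p = 0.00162), 0.69 and 0.41 within the clusters. Psmb7 (chr2:38588036-38644087, minus strand) lay at 7.38, 7.29, 7.28, 7.32 and 7.23 in controls and at 7.61, 7.40, 7.74, 7.63 and 7.63 with stiripentol. Stiripentol 2 was only just above control 1, and the other 4 stiripentol libraries were clearly higher. The change of Psmb7 was 0.30 (SE 0.09, 1.23-fold, adjusted p = 0.0277), 0.35 and 0.23 within the clusters. It was not called without control 2, 3 or 5 or without stiripentol 3, 4 or 5, at adjusted p from 0.0525 to 0.0661. Exons of Psmb7 overlap those of Nek6 on the opposite strand by 405 bases, and whether reads were counted by strand is not given in the sources used here. Nek6 had 23439 reads over the controls and 28360 with stiripentol, against 43370 and 56678 for Psmb7.

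Psmb5 (chr14:54614119-54618022, minus strand), by contrast, was at 6.22, 6.17, 5.88, 6.40 and 6.15 in controls and at 5.59, 5.59, 6.13, 6.06 and 6.00 with stiripentol. The groups overlapped, with stiripentol 1 and 2 below all other libraries. Its change was -0.29 (95% interval -0.62 to 0.03, adjusted p = 0.157), -0.03 within the cluster of 3 and 3 libraries and -0.68 within that of 2 and 2. The pseudogene Gm3375 is 98.9% identical to Psmb5 and had 8217 reads over the controls against 19745 for Psmb5, so reads may be divided between them. Psmb2 had the lowest change of the beta subunits. It stood at 6.62, 6.60, 6.26, 6.31 and 6.24 in controls and at 6.00, 5.85, 6.24, 6.22 and 6.26 with stiripentol, and the groups overlapped in the lowest controls (-0.29, SE 0.13, adjusted p = 0.103; -0.25 and -0.36 within the clusters). Psmb3, Psmb1 and Psmb4 had changes of 0.36, 0.14 and -0.23, with adjusted p of 0.17, 0.524 and 0.128.

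**Figure D2:**
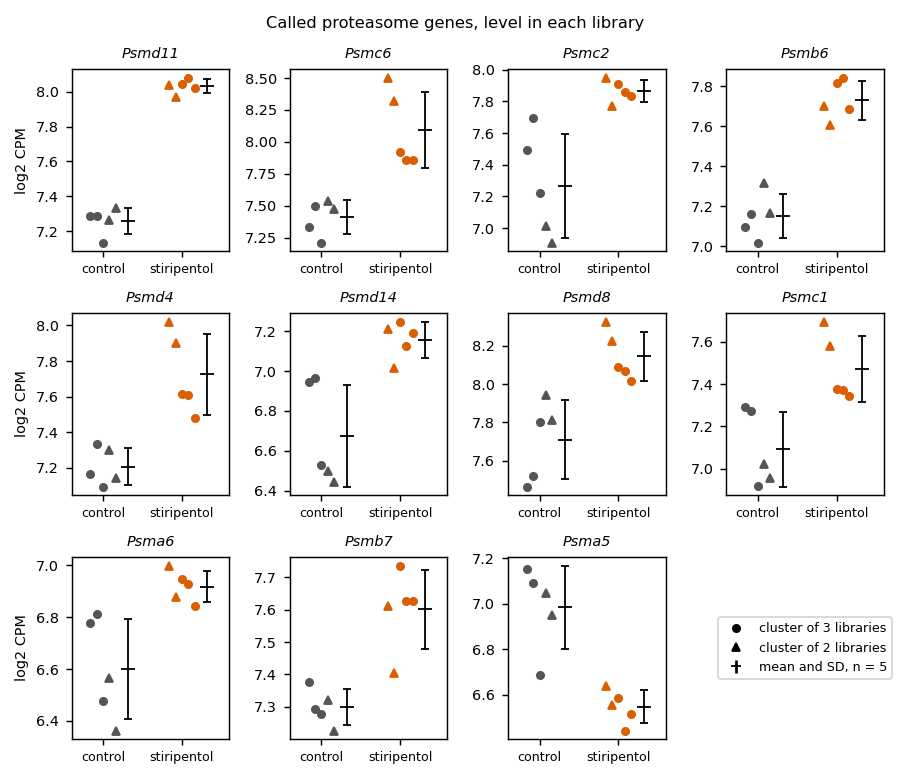
Log2 CPM (y axis, not starting at 0) of each library in the control and stiripentol groups for the 11 called proteasome genes, in order of their change. Circles are libraries of the cluster of 3 and triangles of the cluster of 2, and the bar is the mean and SD of 5 libraries; in each panel the groups do not overlap, and in Psmd11 controls reach 7.34 and stiripentol libraries start at 7.97.

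Of the 6 ATPases at the base of the 19S cap, the ring that unfolds substrates, 3 rose and none fell. Their median change was 0.27, and the changes of all 6 were above 0, as were those of 5710 of the 12306 genes tested. Psmc6 (chr14:45329788-45349705, plus strand) lay at 7.33, 7.50, 7.21, 7.54 and 7.47 in controls and at 8.50, 8.32, 7.92, 7.86 and 7.86 with stiripentol. Stiripentol 1 and 2 were highest. Its change was 0.68 (SE 0.15, 1.6-fold, adjusted p = 0.00722), 0.53 and 0.91 within the clusters. Psmc2 (chr5:21785283-21803787, plus strand) lay at 7.49, 7.70, 7.22, 7.01 and 6.91 in controls and at 7.95, 7.77, 7.91, 7.86 and 7.83 with stiripentol, with controls 4 and 5 lowest. Its change was 0.60 (SE 0.15, 1.51-fold, adjusted p = 0.0143), 0.40 and 0.90 within the clusters. Psmc1 (chr12:100110154-100123405, plus strand) lay at 7.29, 7.27, 6.92, 7.02 and 6.96 in controls and at 7.69, 7.58, 7.38, 7.37 and 7.34 with stiripentol, where stiripentol 3 to 5 were less than 0.1 above control 1. Its change was 0.38 (SE 0.12, 1.3-fold, adjusted p = 0.0328), 0.20 and 0.65 within the clusters. The call of Psmc1 was lost with median-of-ratios scaling (adjusted p = 0.0636) and without control 3, 4 or 5 or stiripentol 1 or 2 (0.0577 to 0.077). Psmc4 had the smallest change. Its levels were 6.65, 6.69, 6.05, 6.08 and 5.88 in controls and 6.06, 6.00, 6.56, 6.52 and 6.51 with stiripentol, spread more within each group than between them (0.06, 95% interval -0.37 to 0.49, adjusted p = 0.836; 0.07 and 0.05 within the clusters), and without control 5 its change was -0.04. Psmc3 and Psmc5 had changes of 0.17 and 0.15 and were not called. Exons of Psmc3 overlap Slc39a13 on the opposite strand by 215 bases.

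Of the 11 non-ATPase subunits of the 19S cap 4 rose and none fell, although the median change was -0.12. Psmd11 (chr11:80428615-80473248, plus strand), a scaffold subunit of the lid, had the largest change of all members. It lay at 7.29, 7.29, 7.14, 7.26 and 7.34 in controls and at 8.04, 7.97, 8.04, 8.08 and 8.02 with stiripentol. The groups were far apart and each was tight. The change was 0.77 (SE 0.08, 1.71-fold, adjusted p = 0.000181), 0.81 and 0.71 within the clusters. Its near copy A730017L22Rik had 1952 reads over the controls against 41579 for Psmd11. Psmd4 (chr3:95032694-95042614, minus strand), a ubiquitin receptor, lay at 7.17, 7.34, 7.10, 7.30 and 7.14 in controls and at 8.02, 7.90, 7.61, 7.61 and 7.48 with stiripentol. Stiripentol 1 and 2 were highest again, as for Psmc6. Its change was 0.52 (SE 0.12, 1.43-fold, adjusted p = 0.0106), 0.37 and 0.74 within the clusters.

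Psmd14 (chr2:61711694-61800376, plus strand), the deubiquitinase of the lid, lay at 6.94, 6.96, 6.53, 6.50 and 6.44 in controls and at 7.21, 7.02, 7.25, 7.12 and 7.19 with stiripentol. Controls 1 and 2 were close to the lowest stiripentol library. The change was 0.48 (SE 0.13, 1.4-fold, adjusted p = 0.0188), 0.37 and 0.64 within the clusters. Psmd8 (chr7:29174188-29180701, minus strand), another lid subunit, lay at 7.47, 7.52, 7.80, 7.94 and 7.82 in controls and at 8.33, 8.23, 8.09, 8.07 and 8.01 with stiripentol. Controls 1 and 2 were its lowest libraries. The change was 0.44 (SE 0.12, 1.35-fold, adjusted p = 0.0202), 0.46 and 0.40 within the clusters, and the adjusted p was 0.0512 without control 2. At the other end stood Psmd7, the lid partner of Psmd14. It was at 7.19, 7.24, 6.82, 6.91 and 6.90 in controls and at 6.40, 6.39, 6.94, 6.93 and 6.91 with stiripentol, with stiripentol 1 and 2 below all other libraries (-0.30, SE 0.15, adjusted p = 0.165; -0.15 and -0.51 within the clusters). Psmd14 was thus called higher while Psmd7 was not called, its 95% interval of -0.63 to 0.04 including 0. The difference between the 2 genes was not tested. The other 6 non-ATPase subunits were not called. The large base subunits Psmd2 and Psmd1 had changes of 0.22 and -0.19, and the lid subunits Psmd3, Psmd12, Psmd6 and Psmd13 of -0.25, -0.17, -0.16 and -0.12, the last of which overlaps exons of Sirt3 on the opposite strand by 342 bases.

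None of the 3 Psmd genes for chaperones that assemble the base, Psmd5, Psmd9 and Psmd10, was called. The changes of all 3 had opposite signs in the clusters, as had those of 37.0% of all genes. In the cluster of 3 and 3 libraries Psmd9 (-0.02) and Psmd10 (0.04) were near 0. Psmd5 lay at 6.45, 6.31, 6.26, 6.88 and 6.93 in controls and at 6.32, 6.33, 6.88, 6.82 and 6.85 with stiripentol. Its change was 0.08 (95% interval -0.32 to 0.48, adjusted p = 0.769), 0.51 within the cluster of 3 and 3 libraries and -0.58 within that of 2 and 2. Psmd10 lay at 4.54, 4.57, 4.32, 4.36 and 4.54 in controls and at 4.09, 4.02, 4.53, 4.46 and 4.55 with stiripentol, with stiripentol 1 and 2 lowest (-0.13, 95% interval -0.46 to 0.19, adjusted p = 0.515), 0.04 and -0.39 within the clusters. The change of Psmd9 was 0.07.

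The activators that can replace the 19S cap, the 11S subunits Psme1, Psme2 and Psme3 and the PA200 gene Psme4, held no called member. The libraries of 1 group differed by cluster here, but also outside the activators. Controls 4 and 5 minus controls 1 to 3 was -0.74 for Psmc5 and 0.57 for Psmd5. Psme1, an interferon-inducible subunit, was at 6.37, 6.54, 6.32, 7.66 and 7.55 in controls and at 7.06, 6.97, 6.64, 6.65 and 6.55 with stiripentol, so that controls 4 and 5 were above all other libraries. The change of Psme1 was -0.12 (95% interval -0.73 to 0.50, adjusted p = 0.774), 0.20 and -0.59 within the clusters. Psme2, its partner in the heptamer, was at 6.38, 6.48, 6.09, 7.02 and 6.93 in controls and at 6.67, 6.61, 6.68, 6.63 and 6.57 with stiripentol, again with controls 4 and 5 highest (0.05, 95% interval -0.32 to 0.42, adjusted p = 0.834), 0.31 and -0.34 within the clusters. Psme2 shares its sequence with Psme2b, which had 2338 reads over the controls against 25967, and with those reads added its change was -0.01. Psme3, which forms a nuclear activator of its own, was at 7.48, 7.48, 7.18, 6.40 and 6.44 in controls and at 5.88, 5.87, 7.42, 7.41 and 7.46 with stiripentol. Its low libraries were controls 4 and 5 and stiripentol 1 and 2, and its change was -0.19 (95% interval -1.06 to 0.68), 0.05 and -0.55 within the clusters. Psme4 was at 8.05, 7.91, 7.97, 7.54 and 7.76 in controls and at 7.36, 7.22, 7.78, 7.69 and 7.81 with stiripentol, with stiripentol 1 and 2 lowest (-0.28, SE 0.15, adjusted p = 0.176), and its changes within the clusters, -0.22 and -0.36, were both below 0.

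Whether a change differed between the clusters was tested as an interaction in limma. For 14 of 38 members the change in the cluster of 2 and 2 libraries differed from that in the cluster of 3 and 3, in 7 downwards and in 7 upwards, while 63.3% of all genes were called, 45.3% downwards and 18.1% upwards. After quantile normalization the split over all genes was 29.0% downwards and 31.0% upwards, and the count of members was 11. Because the clusters were found in the same values, these p-values measure only the spread within clusters. The ATPases Psmc1, Psmc2 and Psmc6 had larger changes in the cluster of 2 and 2 libraries, by 0.44, 0.50 and 0.38, and so had Psmd4, by 0.38. Psmd1 had the largest upward difference, with -0.53 in the cluster of 3 and 3 and 0.32 in that of 2 and 2. Psmd5 had the largest downward difference (-1.09, SE 0.11, adjusted p = 8.18e-06), followed by Psme1 (-0.80), Psmb5 (-0.66), Psme2 (-0.65) and Psme3 (-0.59). Psmd2 and Psmb1 differed by 0.35 and 0.36, and Psmd10 and Psma1 by -0.43 and -0.36. Fitted alone, the cluster of 3 and 3 libraries held 12 members called higher (37.7% of all genes) and 3 called lower (27.0%), and that of 2 and 2 held 16 called higher (25.7%) and 13 called lower (46.5%). With the cluster as a term in the fit of all libraries 12 members were higher (23.6%) and 6 lower (27.1%), among them the 11 called without it. With 1 mean per group and cluster, which counts each cluster once, 0 members and 0% of all genes were called. Of the members 1 had an unadjusted p under 0.05, as did 9.07% of all genes. Changes of opposite sign in the clusters were seen in 10 of 38 members and in 37.0% of all genes. The count of 14 was 22 without control 3 (71.0% of all genes), 9 without control 5 (56.6%) and 8 without stiripentol 1 (55.7%). In controls alone, Psme1 and Psme2 were 1.20 and 0.65 higher in libraries 4 and 5 than in libraries 1 to 3, and the value for Psme3 was -0.96.

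**Figure D3:**
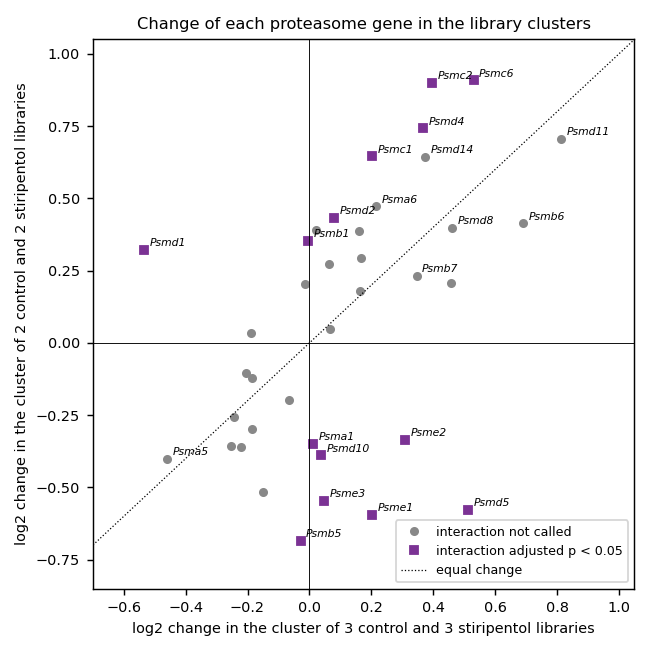
Log2 change (stiripentol minus control) of each of the 38 tested proteasome genes in the cluster of 3 and 3 libraries (x axis) and in the cluster of 2 and 2 libraries (y axis); purple squares are the 14 genes with a called interaction and the dotted line marks equal change. The 11 genes called over all libraries lie in the upper right or, for Psma5 alone, the lower left quadrant, as genes whose groups do not overlap must. Psmd5, Psme1 and Psme2 lie in the lower right.

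Of the 3 immunoproteasome subunits, which replace the catalytic subunits of the core after interferon, 2 fell and 1 was not called, with a median change of -0.93. Over all genes 14.1% were called lower. Psmb8, the counterpart of Psmb5, was at 3.39, 3.51, 3.10, 4.32 and 4.17 in controls and at 2.56, 2.53, 2.96, 3.03 and 2.74 with stiripentol, with controls 4 and 5 highest and no overlap. Its change was -0.93 (SE 0.25, 0.524-fold, adjusted p = 0.0212), -0.42 and -1.70 within the clusters. The call of Psmb8 was lost without stiripentol 2 (adjusted p = 0.0508) and after quantile normalization (0.0517). Psmb10, the counterpart of Psmb7, was at 4.79, 4.87, 4.38, 5.72 and 5.48 in controls and at 3.79, 3.89, 4.37, 4.34 and 4.08 with stiripentol, where stiripentol 3 and control 3 nearly met (-0.95, SE 0.25, adjusted p = 0.0195; -0.41 and -1.76 within the clusters). Psmb9, the counterpart of Psmb6, was at 2.94, 3.37, 2.98, 4.31 and 4.09 in controls and at 3.29, 3.33, 3.14, 3.02 and 2.94 with stiripentol, and the groups overlapped (-0.39, adjusted p = 0.305), -0.07 and -0.88 within the clusters. The controls that were high for these 3 genes, 4 and 5, were those high for Psme1 and Psme2. Of the leukocyte markers above the filter, Cd68 was 1.82 higher in those controls than in controls 1 to 3 on the log2 CPM scale and Lyz2 was lower (-1.65), and their part was not tested.

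Nfe2l1, the transcription factor named above, was at 8.78, 8.96, 9.23, 8.60 and 8.67 in controls and at 9.23, 9.52, 9.55, 9.64 and 9.59 with stiripentol. Stiripentol 1 and control 3 were level at 9.23, and the other stiripentol libraries were above all controls. The change was 0.66 (SE 0.14, 1.58-fold, adjusted p = 0.00596), 0.61 and 0.74 within the clusters. These are transcript levels, whereas Nfe2l1 is known to be controlled largely after translation. Of 6 genes listed for its axis only Nfe2l1 was called. The protease Ddi2, which cleaves the Nfe2l1 protein, had 0.32 and the glycanase Ngly1, which removes its sugars, -0.22.

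Across the 36 other genes listed for the pathway, 9 were called higher and 2 lower, beside 13.6% and 14.1% of all genes. The 2 lower were Psmb8 and Psmb10, and the median change was 0.08. The same shares over all genes stand beside the counts of each list of these genes, above and below. Of the 5 assembly factors of the 20S core 1 rose, Psmg1, from 4.12, 4.07, 3.97, 3.93 and 3.92 in controls to 4.63, 4.51, 4.85, 4.82 and 4.67 with stiripentol (0.69, SE 0.12, adjusted p = 0.00274; 0.73 and 0.64 within the clusters). Its dimer partner Psmg2 had -0.03 and was not called. Pomp, the chaperone of beta ring assembly, was at 6.29, 6.22, 5.81, 5.24 and 4.99 in controls and at 5.21, 5.15, 5.29, 5.31 and 5.22 with stiripentol, close to controls 4 and 5 and below controls 1 to 3 (-0.47, adjusted p = 0.16; -0.83 and 0.07 within the clusters).

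Of 9 genes for proteins that bind the proteasome 3 rose. Uchl5, a deubiquitinase of the cap, was at 5.28, 5.33, 5.07, 4.47 and 4.35 in controls and at 5.97, 5.76, 5.60, 5.54 and 5.60 with stiripentol, with controls 4 and 5 lowest (0.80, SE 0.21, adjusted p = 0.0189; 0.35 and 1.46 within the clusters). Psmf1, the inhibitor PI31, was at 5.85, 5.77, 5.76, 5.64 and 5.63 in controls and at 6.16, 6.07, 6.27, 6.29 and 6.23 with stiripentol (0.47, SE 0.09, adjusted p = 0.00536; 0.47 and 0.48 within the clusters). Akirin2, which carries proteasomes into the nucleus, was at 5.53, 5.54, 5.78, 5.86 and 5.82 in controls and at 6.27, 6.38, 6.06, 5.99 and 6.05 with stiripentol (0.45, SE 0.12, adjusted p = 0.0202; 0.42 and 0.48 within the clusters). No control reached a stiripentol library in any of these 3 genes, and the call of Akirin2 was lost without control 1, control 2 or stiripentol 2, at adjusted p of 0.051, 0.0518 and 0.0504.

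Of 5 genes listed for ubiquitin and its E1 enzymes 2 rose. Among the members and the 36 other pathway genes Ubb, a polyubiquitin gene, had the largest change. It was at 10.27, 10.26, 9.98, 10.61 and 10.42 in controls and at 11.97, 11.81, 11.38, 11.48 and 11.25 with stiripentol, with no overlap (1.27, SE 0.17, 2.42-fold, adjusted p = 0.000656; 1.20 and 1.38 within the clusters). Rps27a, a fusion of ubiquitin with a ribosomal protein, was at 9.68, 9.67, 9.56, 9.68 and 9.45 in controls and at 10.36, 10.21, 9.84, 9.87 and 9.82 with stiripentol (0.41, adjusted p = 0.0347; 0.21 and 0.72 within the clusters). This call was lost with median-of-ratios scaling (adjusted p = 0.0841) and without control 1, 2, 3 or 5 or stiripentol 1 or 2 (0.0575 to 0.0854). Of 8 genes for the segregase p97 and for shuttles that bring ubiquitinated proteins to the proteasome, 2 rose. Ufd1, a cofactor of p97, was at 5.47, 5.50, 5.37, 5.47 and 5.36 in controls and at 5.90, 5.86, 6.06, 6.10 and 6.10 with stiripentol (0.57, SE 0.10, adjusted p = 0.00235; 0.64 and 0.47 within the clusters). Rad23b, a shuttle, was at 8.20, 8.22, 8.02, 7.81 and 7.89 in controls and at 8.88, 8.77, 8.52, 8.49 and 8.47 with stiripentol (0.60, SE 0.12, adjusted p = 0.00595; 0.35 and 0.98 within the clusters). Both were above every control in every stiripentol library, and p97 itself, Vcp, had -0.18 and was not called.

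**Figure D4:**
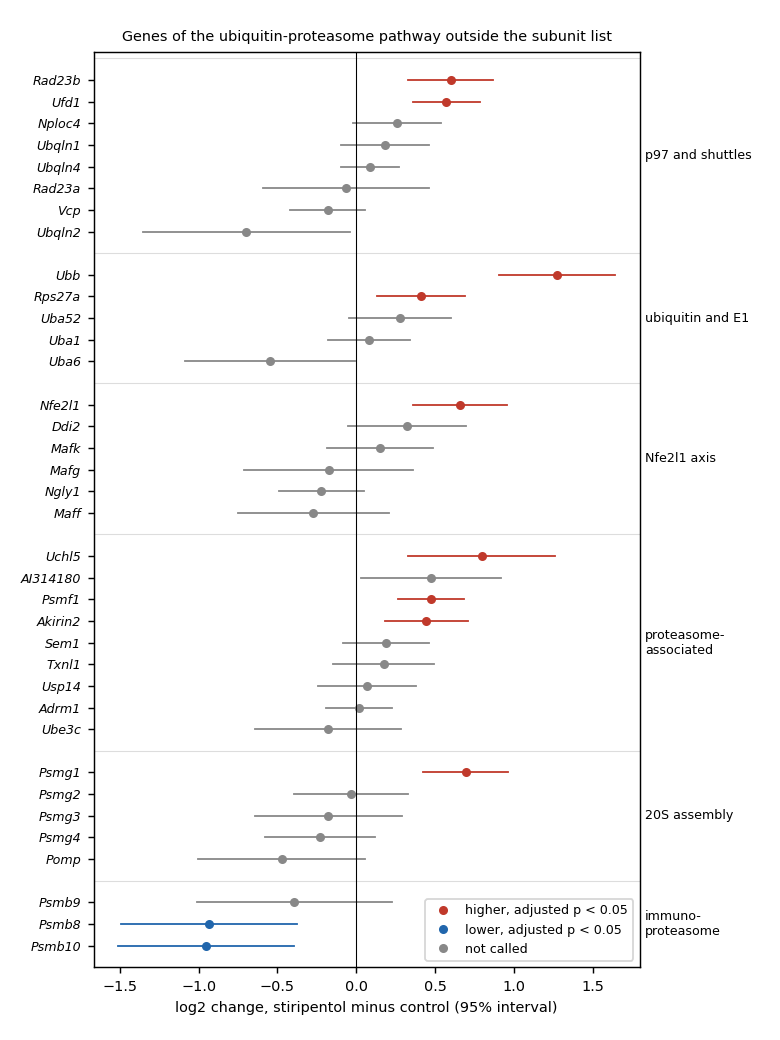
Log2 change with its 95% interval (x axis, stiripentol minus control) of 36 other genes of the ubiquitin-proteasome pathway (y axis), sorted within 6 lists. Red marks the 9 genes called higher, blue the 2 called lower and grey those not called; Ubb, at 1.27, lies farthest to the right and Psmb10, at -0.95, farthest to the left.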

How the data were processed

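RNA of 5 control and 5 stiripentol libraries of mSCLC 2405 cells, treated for 48 h, was sequenced. The authors deposited log2 CPM per gene, normalized with GENAVi after mapping to mm10 per the labels; aligner and counter are not given in the sources used here. The labels name a TruSeq total RNA kit and the study's methods a 3′ kit. A gene without reads has the deposited value -4.82 in controls 1 to 3 and -4.74 in the other 7 libraries. From the steps between low values whole reads were recovered, 100% of values being whole within 0.05.

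Genes with a mean log2 CPM above 0 (12306 of 26335) were fitted with limma 3.58.1 (R 4.3.3; lmFit, eBayes with trend, no covariate), with Benjamini-Hochberg adjustment over all of them and a call at an adjusted p under 0.05. Fold changes are on the deposited log2 scale. The fit was tested on simulated data. Alternatives changed the scaling, filter, pseudocount, libraries, call and model (limma voom on recovered reads, replicate block, library cluster). Library clusters came from correlations over the genes tested. Replicate numbers did not pair the libraries. Named in full were the catalytic subunits, all called members, the extremes of each subgroup, Psmb8, Psmb9, Psmb10, Pomp, Nfe2l1 and called pathway genes. Psme1, Psme3 and the uncalled members and pathway genes given by their change alone were named besides. Members and lists were chosen with earlier results of these data known. Gene positions are from GENCODE M21 (GRCm38).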

Additional observations from a re-analysis of the deposited data

Results flagged for a closer look

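Control 5, with 22375625 recovered reads, lay far below the other 4 control libraries in depth. It was the only one of 110 groups of 5 values so marked by Dixon's test at the 95% level, where chance would give about 5.5.

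The change with stiripentol differed between the library clusters for 14 of 38 members, beside 63.3% of all genes. This was the limma interaction, the change in the cluster of 2 and 2 libraries minus that in the cluster of 3 and 3. The clusters were matched across the groups by their size alone. In the 20S core the differences were -0.36 for Psma1, 0.36 for Psmb1 and -0.66 for Psmb5. Among the ATPases they were 0.44 for Psmc1, 0.50 for Psmc2 and 0.38 for Psmc6. Among the Psmd genes they were 0.86 for Psmd1, 0.35 for Psmd2, 0.38 for Psmd4, -1.09 for Psmd5 and -0.43 for Psmd10. Among the activators they were -0.80 for Psme1, -0.65 for Psme2 and -0.59 for Psme3. What the clusters are was not tested.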

How the results depend on the processing

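With the replicate number as a block (replicate block), 1 member was lower (8.63% of all genes) and 6 higher (8.29%; 1 of them 20S), and 7 of the 11 calls remained; same-numbered libraries did not deviate together (mean correlation -0.152, range -0.240 to 0.0612, and 0 controls closest to their own number). With a term for the library cluster, 6 members were lower and 12 higher (20S 3 and 5, regulatory 3 lower), and all 11 calls remained. The cluster of 3 and 3 libraries alone gave 3 lower (2 regulatory) and 12 higher. That of 2 and 2 alone gave 13 lower and 16 higher (20S 5 and 6, regulatory 8 lower). With 1 mean per group and cluster no member (20S 0 and 0, regulatory 0 higher) and 0% of all genes were called in either direction. Of the members 1 had an unadjusted p under 0.05. Median-of-ratios scaling gave 0 lower (14.9% of all genes), also in the 20S core, and 8 higher (14.2%). The median of all genes was -0.06 as deposited and 0.05 after quantile normalization. An absolute change of at least 0.5 left 0 lower (12.8% of all genes) and 5 higher (10.6%), with 0 and 1 in the 20S core and 4 regulatory members higher. Leaving out each library in turn gave 1 lower each time (9.52 to 14.6% of all genes) and 7 to 10 higher (9.9 to 13.9%). Of these 1 to 3 were 20S members and 6 to 7 regulatory, and 7 of the 11 members were called each time. Members that differed between clusters numbered 8 to 22 (55.7 to 71.0% of all genes). The 20S count of 1 came without control 3 or 5 or stiripentol 3, 4 or 5.

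Chosen after seeing the data were 3 alternatives. The 7 libraries with 1 value for a gene without reads gave 3 members lower (2 regulatory) and 8 higher. The shares over all genes were 9.87% and 10.1%. The fit without stiripentol 1 and 2 gave 1 and 8 (13.0% and 17.0%), and the reads of near-identical copies gave 1 and 10 (14.1% and 13.6%). Among 32 named genes, no called change turned its direction, which for any choice of libraries follows from groups that do not overlap. Of the 22 called, 7 lost the call without stiripentol 1 and 2, 6 in those 7 libraries and 3 with no filter on low values. Changes of 5 uncalled genes turned. Psmc4 was -0.037 to 0.16 when each library was left out, below 0 without control 5. Psmd10 was 0.037 in the cluster of 3 and 3 and 0.049 without stiripentol 1 and 2. Psmd5 was -0.58 in the cluster of 2 and 2, -0.032 with 1 mean per group and cluster and -0.26 in the 7 libraries. Psme2 was -0.34, -0.013 and -0.34 under those settings, -0.013 with its copies, and -0.070 to 0.16 when each library was left out, below 0 without control 3. Pomp was 0.066 in the cluster of 2 and 2 and 0.12 in the 7 libraries. The cause was not tested. Psmd9 had 390 reads in its shallowest library. Whether the depth of control 5 limited members of few reads was not tested.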
